A study of Nothobranchius furzeri with 2 samples.

Results

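Skeletal muscle of male turquoise killifish (Nothobranchius furzeri) was compared between fish whose germ cells had been removed and fish that kept them. Of the 80 individually barcoded libraries in the series, 20 are male muscle, and they were chosen by the treatment, tissue and sex in the names of the count columns. The germ cell–removed group held 5 males at 1.5 months (young) and 5 males at 3 months (old), all from embryos that received a morpholino against dnd at the one-cell stage. The control group held 5 males at 1.5 months and 5 at 3 months, from embryos that received a standard control morpholino. Each library is 1 animal, so the replicates are separate fish. Both groups are wild-type GRZ fish, and the fish were housed singly after their first weeks of life. A morpholino acts only early in development, and removal of the germ cells is its lasting outcome. The question of the comparison is how the transcripts of male muscle differ when the germ line is missing.

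The dnd gene encodes an RNA-binding protein that vertebrate primordial germ cells need in order to survive, and fish that lack it develop a gonad without germ cells. The gonad is a source of sex steroids, which act on muscle growth, and skeletal muscle also answers to insulin-like growth factor, glucocorticoids, vitamin D and inflammatory cytokines. Fish muscle is built mostly of fast glycolytic fibres, with a smaller share of slow oxidative fibres, and carries satellite cells, the resident stem cells that express Pax7 and MyoD. A piece of muscle also holds blood, blood vessels, nerve, connective tissue and, depending on the dissection, skin or scale.

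RNA was measured by bulk RNA barcoding and sequencing (BRB-seq), a 3′ method in which the cDNA of each animal carries a barcode and each molecule a unique molecular identifier (UMI). UMI counts per library ran from 170741 to 208929 in germ cell–removed and from 102521 to 205468 in control males at 1.5 months, and from 129270 to 216291 in germ cell–removed and from 158353 to 173676 in control males at 3 months. The total per library did not differ detectably between the treatments (exact two-sided permutation test within age, p = 0.208). Levels are given as CPM, counts scaled to a library size of 1000000. A single count was worth 4.62 to 9.75 CPM, and a gene seen in fewer than 3 counts is treated as at the limit of detection. Animals 1 and 2 of the young controls, the libraries with the lowest totals, are listed as not subsampled, unlike the other 18. The 9 skeletal muscle markers (myosin light chains, troponins, creatine kinase and the calcium pump) made up 57320 to 179000 summed CPM in germ cell–removed and 48950 to 161600 in control males, so the tissue label held in every library. Transcripts of dnd (Nfu_g_1_016932 and Nfu_g_1_023539) and VASA, a germ cell RNA helicase, gave at most 3 counts in any male muscle library. Muscle holds no germ cells in either group, so these genes do not test the removal here.

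Across the muscle transcriptome, no gene passed the test when the ages were pooled without a block for the animal number. Of 5170 genes with at least 20 counts over the 20 libraries, 0 had an adjusted p under 0.05 by edgeR's quasi-likelihood test with age as a covariate (0% called), and the lowest adjusted p was 0.265. DESeq2 also called 0. Without adjustment, 205 genes (3.97%) had p under 0.05, 129 (2.5%) with higher and 76 (1.47%) with lower values in germ cell–removed males. The median log2 fold change of all genes tested was 0.02. The count depended on single animals: 2 genes were called without germ cell–removed animal 1 of 3 months, and 5 without germ cell–removed animal 4 of 3 months. It also depended on the animal numbers, which deviated together between the treatments at 3 months but not at 1.5 months. With the number within each age as a block, edgeR called 16 genes, 14 with higher and 2 with lower values, among them Nfu_g_1_007730, Nfu_g_1_007654, Nfu_g_1_007641, Nfu_g_1_011108, Nfu_g_1_024366, APOA1, CDO1 and, with lower values, UCP3 and HSP90AA1.2. The labels do not say what a number marks, and the pairing at 3 months was read from these same counts. As the numbers did not pair the animals at 1.5 months, pooled values of the blocked fit are an alternative, not support. They are given below only for genes that this fit called. Other genes described below were not called by it. Their adjusted p was 0.0816 for CD68, 0.125 for B2M (1 OF 2), 0.33 for DHX58 and 0.106 for DNAJA4. It was 0.218 for DNAJC21, 0.125 for MYL2 (1 OF 2) and 0.999 for CPT1A.

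For abundant genes the data bounded the size of a change. Among the 866 genes with at least 200 counts, 834 (96.3%) had a 95% interval within a log2 change of ±1. Over all genes tested, 1832 (35.4%) had such an interval, so for most genes the data do not exclude a change of that size in at least 1 direction. The abundant proteins of the fast fibre were among the bounded ones. ACTC1B, a striated muscle actin that took up to 18.6% of a library, differed by a log2 fold change of 0.18 ± 0.14 (SE), MYLPFA, a fast myosin light chain, by 0.12 ± 0.13, and TNNT3A, the fast troponin T, by 0.10 ± 0.13.

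**Figure D1:**
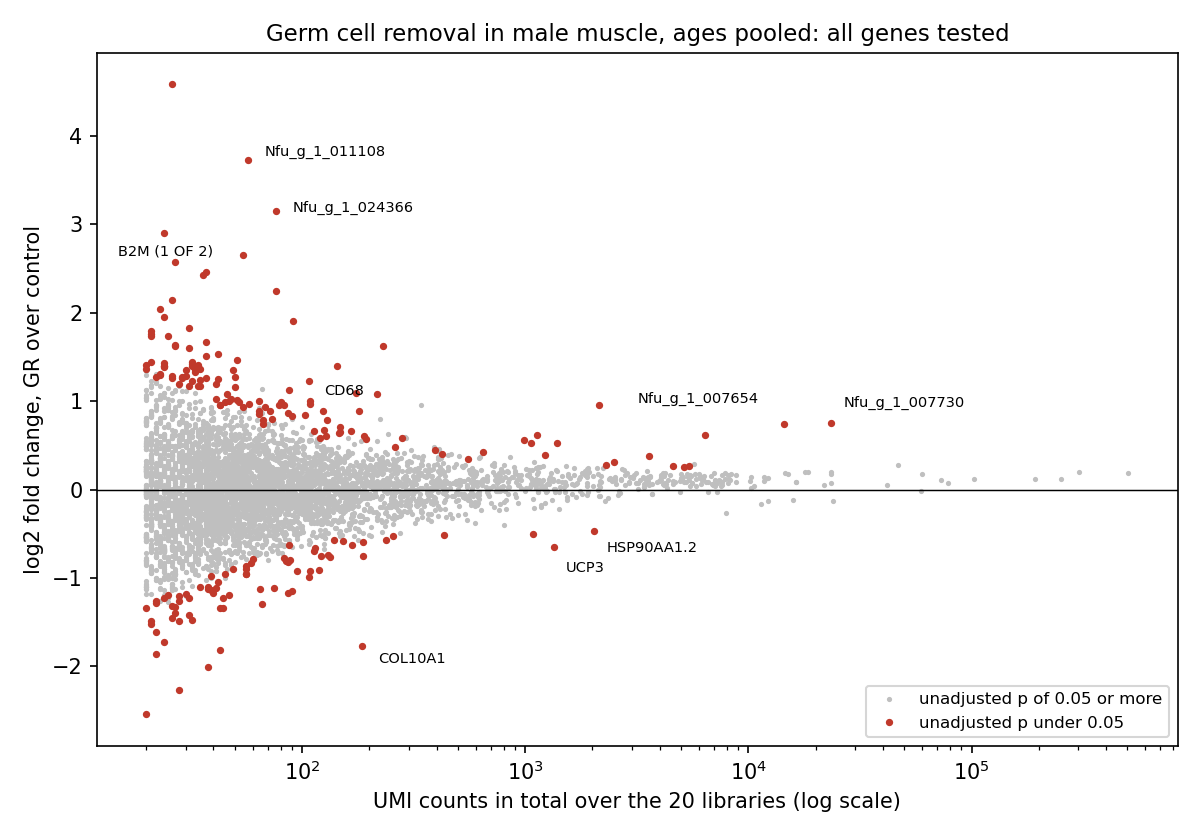
Log2 fold change of germ cell–removed (GR) over control males against the UMI counts of a gene in total over the 20 libraries (log scale), 1 point for each of the 5170 genes tested with the ages pooled. Red points are the 205 genes with an unadjusted p under 0.05; most of the wide changes lie at low counts, and Nfu_g_1_007730 and Nfu_g_1_007654 stand above 0 at the right, among the most abundant genes.

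The lowest p-value belonged to an abundant transcript of unknown product inside an annotated hemoglobin gene cluster. A trio of neighbouring models without a name had higher values in germ cell–removed males at both ages, Nfu_g_1_007730 (sequence sgr05, 3648418 to 3651712, minus strand, coordinates of the deposited table on the GRZ assembly), Nfu_g_1_007654 (sgr05, 3675169 to 3678807, minus strand) and Nfu_g_1_007641 (sgr05, 3681313 to 3682843, plus strand). On the same stretch the annotation places GB-ALPHA2 (Nfu_g_1_007603), described as an embryonic hemoglobin alpha subunit, and GB-BETA3 (Nfu_g_1_007753), a beta-type globin, and NPRL3 follows directly after them. Nfu_g_1_007730 lies within the span of GB-ALPHA2 on the opposite strand, and whether counting used the strand is not given in the sources used here, so reads of these overlapping models may not be fully separated.

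At 1.5 months the counts of Nfu_g_1_007730 were 4663, 4790, 5962, 8851 and 6766 CPM in germ cell–removed males, against 3712, 3563, 3762, 4723 and 3925 CPM in control males. The groups overlapped in 1 control animal, which exceeded the lowest germ cell–removed animal. At 3 months the values were 3547, 15160, 7250, 8048 and 14750 CPM in germ cell–removed males and 4742, 6151, 2349, 7216 and 6689 CPM in control males. Of the 5 old germ cell–removed animals 4 lay above every old control, and the remaining one lay below 4 of the 5 controls. The log2 fold change was 0.75 ± 0.17 (SE) with the ages pooled (unadjusted p = 7.43e-05, adjusted p = 0.265, and 3.25e-08 in the blocked fit), 0.66 ± 0.12 at 1.5 months (adjusted p = 0.000775) and 0.86 ± 0.32 at 3 months (unadjusted p = 0.0104).

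Nfu_g_1_007654 was set out in a like way. At 1.5 months it stood at 2428, 2189, 3470, 4262 and 3103 CPM in germ cell–removed males, against 2288, 1652, 1918, 2209 and 2073 CPM in control males. At 3 months the values were 1302, 9358, 4953, 5910 and 10750 CPM in germ cell–removed males and 2032, 4371, 1185, 5009 and 4943 CPM in control males. Germ cell–removed males lay above every control of their age in 4 of 5 cases at 1.5 months and in 3 of 5 at 3 months. Germ cell–removed animal 1 of 3 months, which had the lowest total of its group (129270 counts), was the lowest for all 3 models. The log2 fold change was 0.75 ± 0.21 pooled (unadjusted p = 0.000803, adjusted p = 0.36, and 8.95e-08 in the blocked fit) and 0.61 ± 0.12 at 1.5 months (adjusted p = 0.00376). Nfu_g_1_007641 ran from 636.2 to 4799 CPM in germ cell–removed and from 584.4 to 2271 CPM in control males, with a pooled log2 fold change of 0.62 ± 0.20 (adjusted p = 0.674, and 0.000185 in the blocked fit).

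The annotated globin models gave far fewer counts than their unnamed neighbours, with 359 counts of GB-ALPHA2 (Nfu_g_1_007603) in the 10 germ cell–removed and 267 in the 10 control libraries, against 14980 and 8517 of Nfu_g_1_007730. GB-ALPHA2 differed by a log2 fold change of 0.37 ± 0.42 and GB-BETA3 (Nfu_g_1_007753) by 0.58 ± 0.54, neither of them below an unadjusted p of 0.05. The other annotated globin models of the stretch were not higher. GB-BETA4 (Nfu_g_1_007507) gave 22 counts in germ cell–removed and 39 in control males. The second GB-ALPHA2 model (Nfu_g_1_007705) gave 3 and 5, and the second GB-BETA3 model (Nfu_g_1_007560) gave 4 and 4. Nfu_g_1_007595, another unnamed model within the span of GB-ALPHA2 (Nfu_g_1_007603), gave 19 counts in germ cell–removed and 7 in control males. ALAS2, which catalyses the first step of heme synthesis in red cell precursors, had 42 counts in germ cell–removed and 24 in control males, a log2 fold change of 0.87 ± 0.48 (unadjusted p = 0.0603). It was detected in 9 of 10 germ cell–removed and 5 of 10 control animals, and among young males in 4 of 5 germ cell–removed and 1 of 5 controls. Of the young controls animals 1 and 2 had the lowest totals, and ALAS2 was seen in animal 2 (10.33 CPM). Of the 5 red blood cell markers, which include ALAS2, 3 were tested. With the ages pooled 0 passed an unadjusted p of 0.05, and the list had a median log2 fold change of 0.06 (−0.26 to 0.87). At 1.5 months 1 of 3, ALAS2, did with a log2 fold change of 2.42 (unadjusted p = 0.0293) and a list median of 0.35. At that age 3.17% of all genes were higher at that level. At 3 months 1 of 3 was above 0, with a list median of −0.06. The markers had summed levels of 14.97 to 91.45 CPM in germ cell–removed and 5.84 to 72.96 CPM in control males. In bulk tissue a different number of cells of a type cannot be told apart from a different amount of RNA in each, and the part of blood in the values of the 3 models was not tested.

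**Figure D2:**
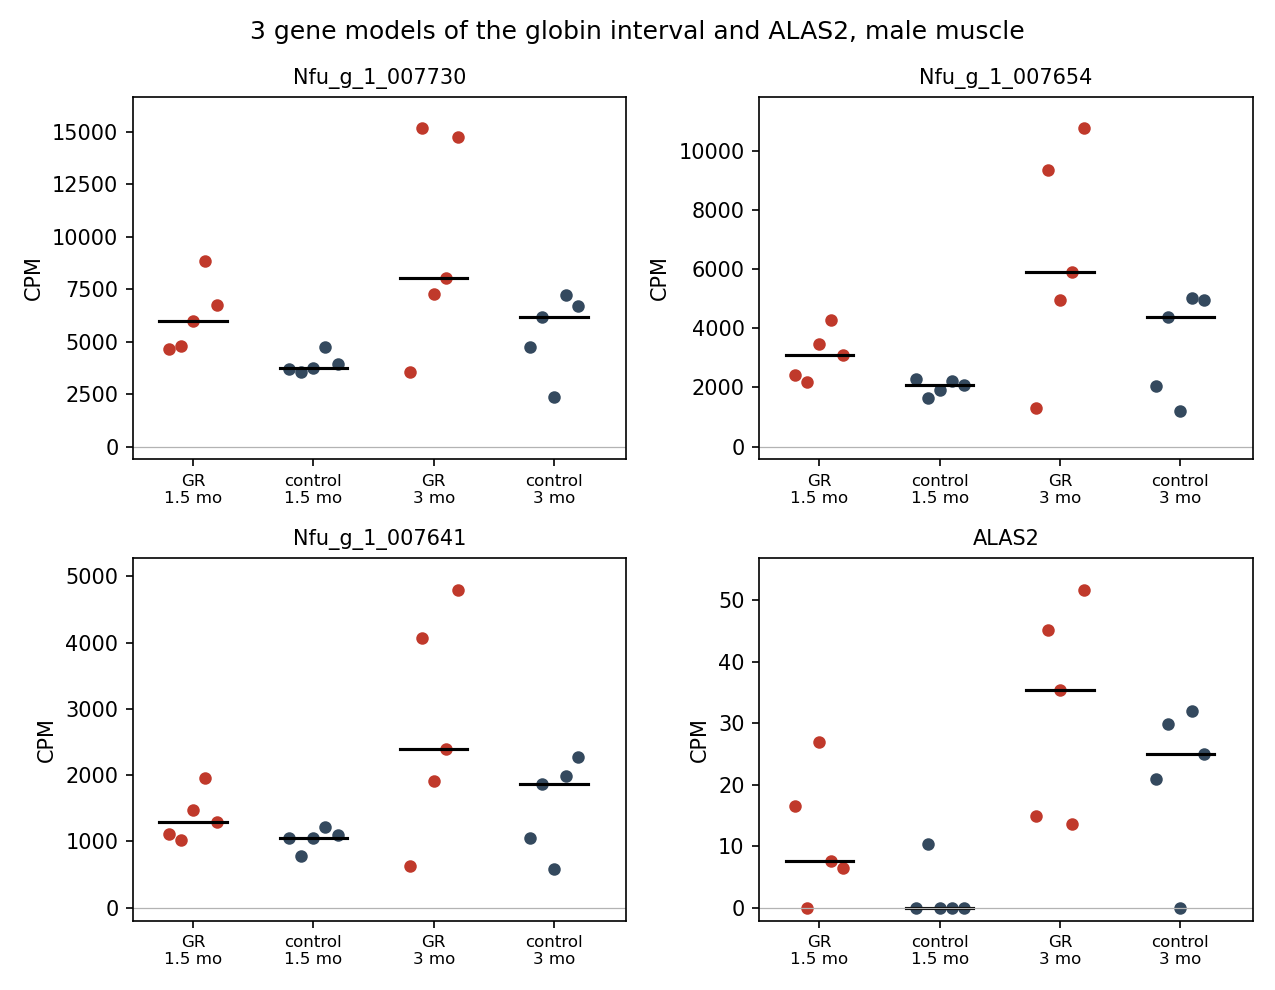
CPM of the 3 unnamed models Nfu_g_1_007730, Nfu_g_1_007654 and Nfu_g_1_007641 and of ALAS2 in each male, 1 point per animal (5 per group), with the median of the group as a bar. Young germ cell–removed (GR) males sit mostly above young controls for the 3 models, and old GR males spread widely, with Nfu_g_1_007730 between 3547 and 15160 CPM.

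At 1.5 months taken alone, 6 of 4414 genes passed the test (0.136%), all of them higher in germ cell–removed males, and 215 genes (4.87%) had an unadjusted p under 0.05, 3.17% with higher and 1.7% with lower values. Besides Nfu_g_1_007730 and Nfu_g_1_007654 these were 2 genes of plasma proteins made by the liver, APOA1 and TFA, the gene listed as C21H11ORF70, and the uncharacterized Nfu_g_1_011108. With plain library sizes in place of TMM, 6 genes were higher and 3 lower, the lower ones being HSP90AA1.2, DNAJA4 and 1 model named MYH13 (1 OF 7). Several models carry that name, with log2 fold changes from −0.53 (Nfu_g_1_007479) to −0.09 (Nfu_g_1_007519) in the TMM fit. The number called at this age was sensitive: it was 0 by DESeq2, by edgeR's newer quasi-likelihood fit or without the libraries that had not been subsampled, 3 without control animal 1, control animal 5 or germ cell–removed animal 1, and 11 without germ cell–removed animal 4.

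APOA1, the main protein of high-density lipoprotein, stood at 77.26, 5.655, 67.52, 0 and 39.03 CPM in young germ cell–removed males, against 0, 0, 6.148, 5.752 and 0 CPM in young control males. Animals 1, 3 and 5 of the germ cell–removed group were above every control. TFA, a transferrin that carries iron in plasma, stood at 110.4, 0, 40.51, 7.624 and 58.55 CPM in young germ cell–removed males and 10.55, 0, 0, 5.752 and 11.68 CPM in young control males. Both passed the test at this age. Without germ cell–removed animal 1 neither was called (adjusted p = 0.24 for APOA1 and 0.745 for TFA). With each animal left out in turn, APOA1 was called in 6 and TFA in 3 of 10 fits. The log2 fold changes at 1.5 months were 3.43 ± 1.18 for APOA1 (adjusted p = 0.0132) and 2.80 ± 0.88 for TFA (adjusted p = 0.0339).

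The same 3 germ cell–removed animals, numbers 1, 3 and 5, carried most of both transcripts, and they carried other transcripts of liver-secreted proteins too. Of 25 such markers, 9 reached the minimum of 10 counts at 1.5 months, and most of those counts came from these 3 animals, so the 9 were in part chosen for being high there. The 5 with an unadjusted p under 0.05, all with higher values, were APOA1, TFA, HPX, AHSG and FETUB. Of all genes tested at 1.5 months, 3.17% were higher at that level. HPX, hemopexin, differed by 1.80 ± 0.65, and FETUB, a fetuin, by 1.16 ± 0.51. The summed level of all 25 markers was 28.28 to 601.6 CPM (median 324.1) in young germ cell–removed males and 6.148 to 157.7 CPM (median 94.91) in young control males. The part of RNA from liver in these values was not tested.

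At 3 months the liver-secreted transcripts did not separate the treatments. Their summed level ran from 210.8 to 2787 CPM (median 980.4) in old germ cell–removed and from 114.4 to 2271 CPM (median 740) in old control males, and of 17 markers tested 0 had an unadjusted p under 0.05. APOA1 differed by 0.62 ± 0.64 and TFA by 0.06 ± 0.54 at that age. The difference between the ages had an unadjusted p of 0.0503 for APOA1 and 0.0153 for TFA, and neither was called.

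C21H11ORF70 (Nfu_g_1_016229), an open reading frame of unassigned function in these files, was carried by single animals. It stood at 303.5, 0, 13.5, 7.624 and 0 CPM in young germ cell–removed males and 0, 0, 6.148, 5.752 and 5.84 CPM in young control males. At 3 months germ cell–removed animal 3 had 371.9 CPM and control animal 3 had 463.1 CPM, while no other old male exceeded 25.1 CPM. The log2 fold change was 3.80 ± 1.14 at 1.5 months (adjusted p = 0.00288) and −0.11 ± 0.90 at 3 months. Nfu_g_1_011108 and Nfu_g_1_024366, both uncharacterized, are neighbours on sgr05 (47397955 to 47402511, minus strand, and 47410526 to 47412401, plus strand), 8014 bases apart, and the 2 animals highest in one were also highest in the other.

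Nfu_g_1_011108 stood at 121.4, 0, 13.5, 7.624 and 0 CPM in young germ cell–removed males and at 0 in all 5 young controls (adjusted p = 0.0132). From summed counts its level was 7.37-fold that of a floor of 3 counts over the control group, without regard to the spread between animals. Of its 25 counts in young germ cell–removed males 22 were in animal 1, and without that animal it had too few counts to be tested. The old animals had 44.9, 0, 135.8, 0 and 0 CPM in germ cell–removed males and 5.211, 9.945, 0, 0 and 0 CPM in control males. With the ages pooled it gave 54 counts in germ cell–removed and 3 in control males, a log2 fold change of 3.73 ± 1.42 (unadjusted p = 0.000102, adjusted p = 0.265, and 7.93e-05 in the blocked fit). Nfu_g_1_024366 gave 69 counts in germ cell–removed and 7 in control males, with 93.82 CPM in germ cell–removed animal 1 of 1.5 months and 265.7 CPM in germ cell–removed animal 3 of 3 months, against at most 16.54 CPM in any control. Its pooled log2 fold change was 3.15 ± 1.06 (adjusted p = 0.36, and 0.000166 in the blocked fit), and 1.58 without the second of these animals.

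Those 2 animals also held most of the transcripts of CDO1, cysteine dioxygenase, which starts the breakdown of cysteine and the synthesis of taurine. CDO1 stood at 82.78, 5.655, 6.752, 0 and 0 CPM in young germ cell–removed males, against 0, 0, 12.3, 0 and 5.84 CPM in young control males. In old fish it stood at 29.94, 0, 230.2, 13.62 and 0 CPM in germ cell–removed males and 15.63, 9.945, 5.513, 11.99 and 5.003 CPM in control males. The pooled log2 fold change was 2.25 ± 0.79 (unadjusted p = 0.0017, adjusted p = 0.4, and 0.0409 in the blocked fit), and 0.91 without germ cell–removed animal 3 of 3 months.

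Transcripts of the antiviral interferon response had higher values in germ cell–removed males, with 1 old animal far above the rest. Interferons act on cell-surface receptors to induce genes of antigen presentation and of the sensing and blocking of viral RNA. The summed level of the 21 annotated genes of this list was 87.77 to 270.4 CPM (median 114.4) in young germ cell–removed males and 20.65 to 98.36 CPM (median 69.03) in young control males. At 3 months it was 75.3 to 738 CPM (median 103.4) in germ cell–removed males and 65.04 to 89.51 CPM (median 72.96) in control males. The groups overlapped in 1 germ cell–removed animal at each age, and animal 3 of the old germ cell–removed males held the highest value. Of the 21 genes 8 reached the minimum of 20 counts, several of them through that animal, so their number and median are not a measure of the whole list. The 6 with an unadjusted p under 0.05, all with higher values (2.5% of all genes had such), included B2M (1 OF 2), DHX58, IFIH1, IRF1B and RSAD2, and none of the 8 was called. Without animal 3, 5 of the genes reached the minimum and 1 had an unadjusted p under 0.05.

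B2M, the light chain of class I antigen-presenting molecules, stood at 11.04, 5.655, 13.5, 7.624 and 0 CPM in young germ cell–removed males, against 0, 0, 0, 0 and 5.84 CPM in young control males. At 3 months it stood at 14.97, 15.06, 100.4, 4.539 and 11.93 CPM in germ cell–removed males and 10.42, 4.973, 0, 0 and 5.003 CPM in control males. It was detected in 9 of 10 germ cell–removed and 4 of 10 control animals. Outside germ cell–removed animal 3 of 3 months these values lay at or near the detection limit. Young control animals 1 and 2, scored as undetected, had the lowest totals of the 20 libraries. The pooled log2 fold change was 2.46 ± 0.84 (unadjusted p = 0.000409, adjusted p = 0.36), and 1.55 (unadjusted p = 0.02) without germ cell–removed animal 3 of 3 months.

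DHX58, a cytosolic sensor of viral RNA, stood at 22.08, 11.31, 0, 15.25 and 0 CPM in young germ cell–removed males and 0, 0, 6.148, 5.752 and 0 CPM in young control males. At 3 months the values were 7.484, 10.04, 70.84, 0 and 3.976 CPM in germ cell–removed males and 0, 4.973, 0, 0 and 0 CPM in control males. The groups overlapped at both ages, with the gene detected in 7 of 10 germ cell–removed and 3 of 10 control animals. Values in control males lay at the detection limit, and young control animals 1 and 2 had the lowest totals. Its pooled log2 fold change was 2.57 with a 95% interval of 0.37 to 4.77 (unadjusted p = 0.00154, adjusted p = 0.379), from 24 counts in germ cell–removed and 3 in control males. Without animal 3 of the old germ cell–removed males it had too few counts to be tested.

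CABZ01045230.1, described as an interferon-induced protein 44-like gene, was not on the list. It was detected in 4 of 5 young germ cell–removed males, at 16.56, 11.31, 20.25 and 15.25 CPM, and in none of the 5 young control males (10 counts in all, adjusted p = 0.435). From summed counts its level was 2.95-fold that of a floor of 3 counts over the control group, without regard to the spread between animals. At 3 months germ cell–removed animal 3 had 200.7 CPM, the other old germ cell–removed males at most 7.952 CPM, and the old control males 10.42, 4.973, 16.54, 0 and 5.003 CPM. IFIH1, another sensor of viral RNA, ran from 5.02 to 82.65 CPM (median 11.62) in germ cell–removed males, against 0 to 31.64 CPM (median 4.5) in control males.

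CD68, a lysosomal glycoprotein of macrophages, stood at 33.11, 28.28, 6.752, 15.25 and 45.54 CPM in young germ cell–removed males, against 21.09, 0, 6.148, 17.26 and 5.84 CPM in young control males. Among old fish it stood at 22.45, 45.18, 283.4, 45.39 and 47.71 CPM in germ cell–removed males and 26.06, 24.86, 44.1, 39.98 and 25.01 CPM in control males. Of the 5 old germ cell–removed animals 4 were above every old control, 3 of them by less than 4 CPM. The pooled log2 fold change was 1.40 ± 0.40 (unadjusted p = 0.000627, adjusted p = 0.36), and 0.67 (unadjusted p = 0.0482) without animal 3.

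Other leukocyte genes moved less. Of 16 markers 6 were tested, and 4 of the 16 had no count. A log2 fold change above 0 was found for 5. An unadjusted p under 0.05 was found for 1, CSF1RB, the receptor of a macrophage growth factor (0.66 ± 0.31, unadjusted p = 0.0328). Of all genes tested, 2.5% were higher at that level. The summed level was 52.05 to 283.4 CPM in germ cell–removed and 10.33 to 126.8 CPM in control males. The median log2 fold change of the 6 was 0.60, and of the 5 testable without germ cell–removed animal 3 of 3 months it was −0.01. That animal was also the highest of all 20 for the summed markers of exocrine pancreas (1458 CPM), liver-secreted proteins (2787 CPM) and skin (3654 CPM). The share of other cell types in its values was not tested.

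**Figure D3:**
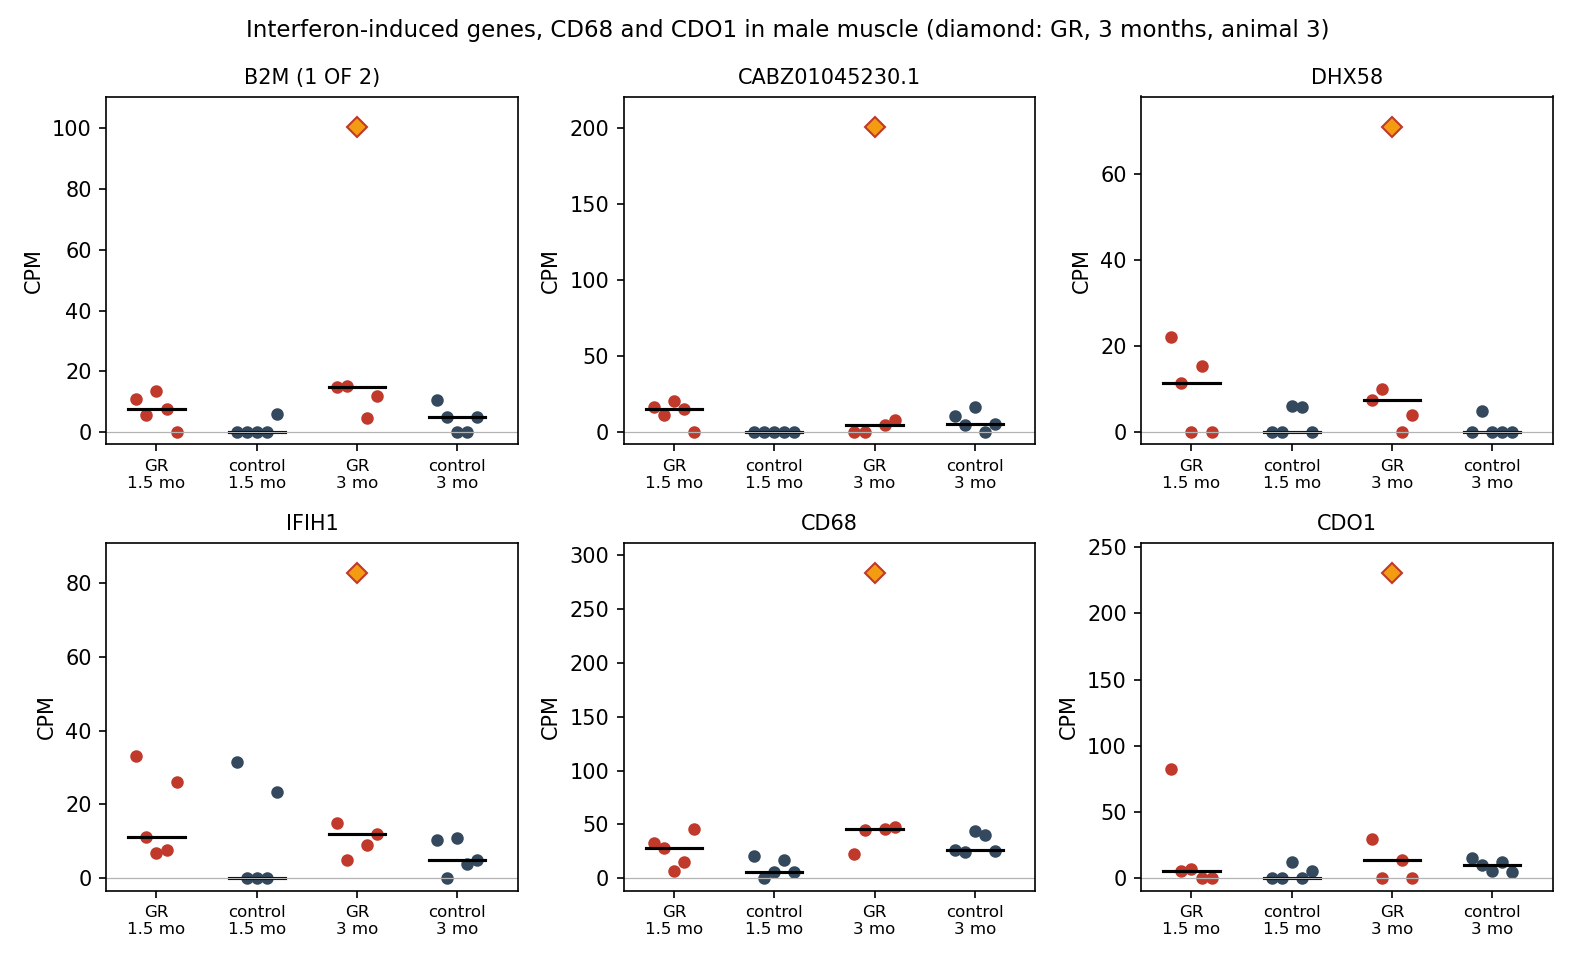
CPM of 4 interferon-related genes, CD68 and CDO1 in each male, 1 point per animal (5 per group), with the median of the group as a bar and germ cell–removed (GR) animal 3 of 3 months as a diamond. That animal is the highest in every panel, at 100.4 CPM for B2M (1 OF 2) and 283.4 CPM for CD68, and the medians of young GR males lie above those of young controls.

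At 3 months taken alone, 0 of 5778 genes passed edgeR's test (0%), 189 (3.27%) had an unadjusted p under 0.05, 1.44% with higher and 1.83% with lower values, and DESeq2 called 0. Animals of the same number deviated together at this age, though germ cell–removed animal 5 was closer to a control of another number. With the animal number as a block 8 genes were called, 6 of them higher and 2 lower in germ cell–removed males. The pairing was read from these same counts, so these calls are given as an alternative, not as support. The higher ones were Nfu_g_1_007730 (adjusted p = 0.0439) and Nfu_g_1_007654 (adjusted p = 0.0365), Nfu_g_1_024366 (adjusted p = 0.0023), and the unnamed Nfu_g_1_007454, Nfu_g_1_002182 and Nfu_g_1_023611. Most of these rest on few animals. Nfu_g_1_002182 had all of its 26 counts in 1 germ cell–removed animal. Without germ cell–removed animal 3, in the fit without the block, the log2 fold change at 3 months was 0.28 for Nfu_g_1_024366 (unadjusted p = 0.784), against 3.44 with it, and 0.06 for Nfu_g_1_007454 (unadjusted p = 0.868), against 1.55 with it. Nfu_g_1_023611 reached 276.9 and 449.3 CPM in germ cell–removed animals 4 and 5, against 147.9 CPM in control animal 4, and did not exceed 20.01 CPM in the other old males. The lower ones were UCP3 (adjusted p = 0.00178) and COL10A1 (adjusted p = 0.00872).

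UCP3, an uncoupling protein of the muscle mitochondrial inner membrane that is induced when fatty acids are burned, had lower values in most germ cell–removed males. At 1.5 months it stood at 126.9, 231.9, 526.6, 266.8 and 286.3 CPM in germ cell–removed males, against 158.2, 320.1, 534.9, 437.2 and 531.5 CPM in control males. At 3 months it stood at 89.81, 95.38, 159.4, 862.5 and 230.6 CPM in germ cell–removed males and 161.5, 482.3, 711.2, 415.7 and 760.4 CPM in control males. The groups overlapped at both ages. The old germ cell–removed animals at 89.81, 95.38 and 159.4 CPM were below every old control, and animal 4 was the highest of all 20. The log2 fold change was −0.65 ± 0.27 pooled (unadjusted p = 0.0185, adjusted p = 0.997, and 6.57e-06 in the blocked fit), −0.54 ± 0.20 at 1.5 months and −0.82 ± 0.42 at 3 months, where it was −1.16 in the blocked fit. Without animal 4 the pooled value was −1.08 and the gene was called.

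CPT1A, which admits long-chain fatty acids into mitochondria, ran from 22.45 to 47.26 CPM (median 33.48) in germ cell–removed and from 21.09 to 92.04 CPM (median 52.34) in control males, with a log2 fold change of −0.58 ± 0.26 (unadjusted p = 0.0237). Among the 17 genes of fatty acid oxidation and lipid handling tested, UCP3 and CPT1A were the 2 with an unadjusted p under 0.05 and lower values, none was higher at that level, 11 had a log2 fold change above 0 and the median was 0.10. Of all genes tested, 1.47% had lower values at that level. COL10A1, a collagen of hypertrophic cartilage and fish scale and bone, owed its value to 1 control. It stood at 22.45, 0, 17.71, 0 and 3.976 CPM in old germ cell–removed males, against 10.42, 497.3, 0, 0 and 5.003 CPM in old control males. Without that control the log2 fold change at 3 months was 0.91, against −3.63 ± 1.29 with it.

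A few chaperones of the heat shock response had lower values in germ cell–removed males, while the list as a whole did not. Of 55 chaperone and co-chaperone genes tested with the ages pooled, 4 had lower values at an unadjusted p under 0.05 (1.47% of all genes did) and 0 higher, with a median of −0.07. These were HSP90AA1.2, DNAJA4, HSPA1A (Nfu_g_1_014930) and DNAJC21, and none was called. Without the libraries not subsampled the counts were 3 lower and 1 higher, and of the 4 genes only DNAJC21 was among them (unadjusted p = 0.00169). The unadjusted p was then 0.205 for HSP90AA1.2, 0.166 for DNAJA4 and 0.161 for HSPA1A (Nfu_g_1_014930). At 1.5 months 5 of 51 had lower values at that level, where 1.7% of all genes did, and 0 higher, while 26 of the 51 had a log2 fold change above 0 and the median was 0.01. HSP90AA1.2, a cytosolic Hsp90, stood at 894.1, 808.7, 668.4, 937.7 and 494.4 CPM in young germ cell–removed males, against 1202, 1952, 891.4, 811.1 and 823.5 CPM in young control males. At 3 months it stood at 516.4, 416.7, 330.6, 72.63 and 250.5 CPM in germ cell–removed males and 453.4, 387.9, 159.9, 447.7 and 550.3 CPM in control males. The log2 fold change was −0.47 ± 0.20 pooled (unadjusted p = 0.0209, adjusted p = 0.997, and 0.0237 in the blocked fit), −0.52 ± 0.15 at 1.5 months and −0.31 ± 0.34 at 3 months. The 2 highest young controls are those not subsampled, and without them the value was −0.16 (unadjusted p = 0.292) at 1.5 months and −0.26 (unadjusted p = 0.205) pooled.

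DNAJA4, an Hsp40 co-chaperone, stood at 237.3, 130.1, 270.1, 465.1 and 117.1 CPM in young germ cell–removed males, against 569.5, 568, 135.2, 299.1 and 478.9 CPM in young control males. The groups overlapped: the germ cell–removed animals at 237.3, 270.1 and 465.1 CPM exceeded the lowest control, and the last of them exceeded 2 controls. Its pooled log2 fold change was −0.50 ± 0.21 (unadjusted p = 0.0202), and −0.31 without the libraries not subsampled. At 1.5 months it was −0.71, and −0.38 (unadjusted p = 0.142) without them. At 3 months it was −0.26. HSPA1A (Nfu_g_1_014930), an inducible Hsp70, gave 15 counts in germ cell–removed and 32 in control males, a log2 fold change of −1.20 ± 0.56 (unadjusted p = 0.025), while a second model of that name, Nfu_g_1_023829, differed by −0.07 ± 0.51. DNAJC21, a co-chaperone of ribosome maturation, gave 7 counts in germ cell–removed and 31 in control males (−2.01 ± 0.69, unadjusted p = 0.000907, adjusted p = 0.36).

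Genes of slow fibres and of oxidative phosphorylation had small positive values. All 9 slow-fibre contractile genes tested had a log2 fold change above 0, with a median of 0.21 and a range of 0.02 to 0.43. Of these 2, MYL2 (1 OF 2) and TPM3, had an unadjusted p under 0.05, where 2.5% of all genes were higher at that level. MYL2, a regulatory myosin light chain of slow and cardiac muscle, ran from 763.4 to 1879 CPM (median 1190) in germ cell–removed and from 545.3 to 1174 CPM (median 970.7) in control males (0.37 ± 0.15, unadjusted p = 0.013, adjusted p = 0.962). TPM3, the slow tropomyosin, differed by 0.43 ± 0.19 (unadjusted p = 0.0306). With plain library sizes in place of TMM the median of the list was 0.10 and 0 had an unadjusted p under 0.05, while the median of all genes was −0.08.

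Of 64 nuclear-encoded subunits of the respiratory chain and ATP synthase, 53 had a log2 fold change above 0 with a median of 0.12. An unadjusted p under 0.05 was found for 2, ATP5D and NDUFA4, where 2.5% of all genes were higher at that level. With plain library sizes the median was 0.02. At 1.5 months 55 of 64 were above 0 with a median of 0.20, against a median of 0.06 for all genes. At that age 7 were higher at an unadjusted p under 0.05, where 3.17% of all genes were. ATP5D, the delta subunit of ATP synthase, ran from 612.3 to 954.8 CPM (median 790.7) in germ cell–removed and from 491.7 to 750.9 CPM (median 635.4) in control males (0.31 ± 0.12, unadjusted p = 0.0119). Of 78 cytosolic ribosomal proteins 74 were above 0 and 0 had an unadjusted p under 0.05; their median was 0.11 and turned to −0.01 with plain library sizes. These genes share libraries and scaling, so their signs are not independent.

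Other lists showed little, set against 2.5% of all genes higher and 1.47% lower at an unadjusted p under 0.05. Fast-fibre contractile genes had a median of 0.10 with 0 of 26 at an unadjusted p under 0.05, and calcium-handling genes −0.02 with 0 of 19. Of 26 genes of glycolysis and phosphocreatine 1 was higher at that level, PYGMB, a muscle glycogen phosphorylase (0.60 ± 0.24, unadjusted p = 0.014), and the median was 0.07. The paralog PYGMA had the opposite sign, with −0.63 ± 0.50 pooled and −1.41 at 3 months (unadjusted p = 0.0471). At 3 months 1.83% of all genes were lower at an unadjusted p under 0.05. Translation factors had a median of 0.07 with 1 of 41, EIF2A (0.64 ± 0.28), higher. Proteasome subunits had a median of 0.05 with 0 of 34, and collagens and matrix genes −0.05 with 1 of 37, COL10A1, lower. The list of cysteine, taurine and glutathione metabolism had a median of −0.03 with 1 of 15, CDO1, higher. The circadian clock list had a median of −0.16 with 1 of 10 lower, NR1D2A, a heme-sensing repressor of the clock (15 counts in germ cell–removed and 30 in control males, −0.95 ± 0.50, unadjusted p = 0.0449).

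**Figure D4:**
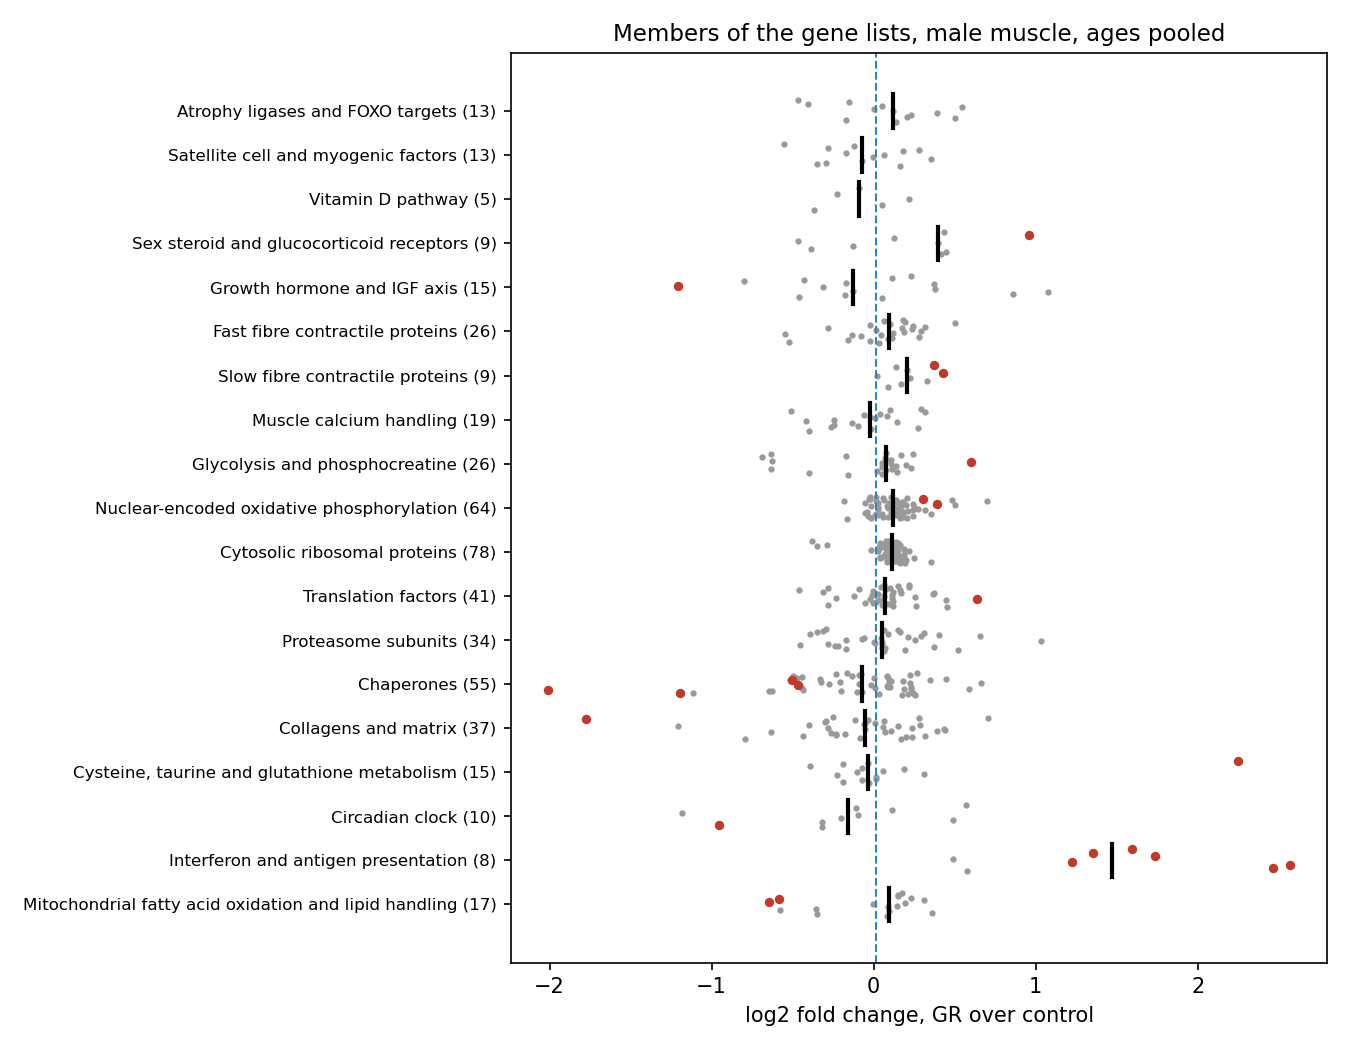
Log2 fold change of germ cell–removed (GR) over control males, ages pooled, for the members of the 19 pathway lists, 1 point per gene tested (number in brackets), with the median of the list as a black bar. Red points have an unadjusted p under 0.05 and the dashed line is the median of all genes (0.02); the interferon list has its median at 1.47, over the 8 members with enough counts, and the other medians lie between −0.16 and 0.40.

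Genes that the study followed in muscle ranged from moderate to very low counts. FBXO32 (atrogin-1) and TRIM63 (MuRF1) are ubiquitin ligases of muscle wasting that are held down by IGF-1 signaling. FBXO32 ran from 0 to 45.39 CPM (median 24.32) in germ cell–removed and from 0 to 49.62 CPM (median 13.5) in control males, a log2 fold change of 0.23 ± 0.45 with a 95% interval of −0.68 to 1.14. TRIM63 (2 OF 2) ran from 39.76 to 236.3 CPM (median 62.32) in germ cell–removed and from 34.81 to 146 CPM (median 109.5) in control males, −0.17 ± 0.23 with an interval of −0.64 to 0.30. Both intervals include 0. Of the 13 genes tested on the list of atrophy ligases and FOXO targets, 9 had a log2 fold change above 0, 0 an unadjusted p under 0.05, and the median was 0.12.

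Satellite cell genes were mostly near the detection limit. PAX7 (1 OF 2) gave 8 counts in the 10 germ cell–removed and 6 in the 10 control libraries and could not be tested with the ages pooled. MYOD1 (2 OF 2), the factor of activated satellite cells, gave 22 counts in germ cell–removed and 16 in control males (0.36 ± 0.54, interval −0.72 to 1.43). VDRB, a vitamin D receptor, gave 10 counts in germ cell–removed and 12 in control males (−0.23 ± 0.73, interval −1.69 to 1.23). The intervals are wide and do not exclude changes of either sign. Of 13 satellite cell and myogenic genes and 5 vitamin D pathway genes tested, 0 had an unadjusted p under 0.05, with medians of −0.07 and −0.09.

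Hormone axes gave single genes. IGF2B, a growth factor ligand, gave 8 counts in germ cell–removed and 20 in control males (−1.21 ± 0.65, unadjusted p = 0.0373), the only one of 15 genes of the growth hormone and IGF axis at that level, with a list median of −0.13. SRD5A3, a member of the steroid reductase family, gave 29 counts in germ cell–removed and 14 in control males (0.96 ± 0.49, unadjusted p = 0.038), the only one of 9 genes of steroid receptors and metabolism, with a list median of 0.40. ESR1, an estrogen receptor, differed by 0.45 ± 0.59. None of these 3 genes was called. Of all genes tested, 2.5% were higher and 1.47% lower at an unadjusted p under 0.05.

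Between the ages the changes gave no call. The interaction of age and treatment gave 0 of 5170 genes (0%) by edgeR and 0 by DESeq2, with 154 (2.98%) at an unadjusted p under 0.05, 1.12% with a higher and 1.86% with a lower change at 3 months. The lowest value was that of DSPA, a desmosomal plakin of skin (unadjusted p = 0.000135, adjusted p = 0.696). It had 0 counts in the 5 young germ cell–removed and 12 counts, spread over all 5, in the young control males. From summed counts the control level was 4.52-fold that of a floor of 3 counts over the germ cell–removed group, without regard to the spread between animals. At 3 months the log2 fold change of DSPA was 1.04 ± 0.60. PKP3 (2 OF 2), another desmosomal gene, differed by −3.08 ± 1.66 at 1.5 months and 0.28 ± 0.57 at 3 months. Of 6 skin markers tested at 1.5 months, 2 were lower at an unadjusted p under 0.05 and 0 higher, while 3 had a log2 fold change above 0. At that age 1.7% of all genes were lower at that level. The summed level of 18 skin markers was 855.4 to 1139 CPM in young germ cell–removed and 433.7 to 1322 CPM in young control males, with the germ cell–removed animals inside the range of the controls. Of the remaining marker lists, those of endothelium (5 tested, median 0.27), nerve and glia (3, 0.05), pigment cells (1, −0.27), fat (2, −0.20), exocrine pancreas (11, 0.19) and bone, cartilage and scale (5, −0.28) had 0 genes higher at an unadjusted p under 0.05, and COL10A1 was the only one lower.

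**Figure D5:**
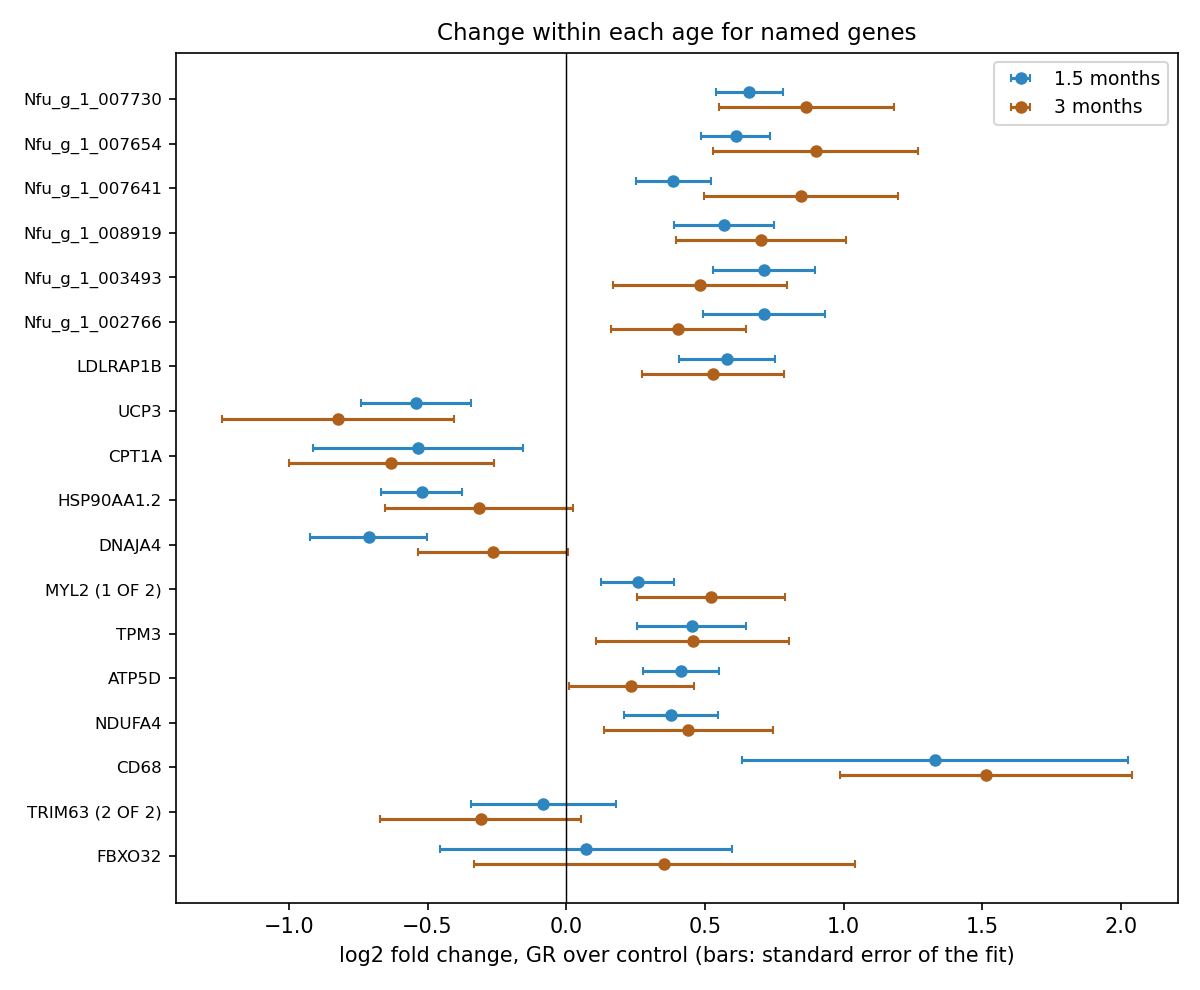
Log2 fold change of germ cell–removed (GR) over control males within 1.5 months (blue) and within 3 months (brown) for 18 named genes, with the standard error of the fit as bars. UCP3 and CPT1A lie below 0 at both ages, the 3 models of the hemoglobin interval above 0 at both, and FBXO32 and TRIM63 (2 OF 2) within 1 standard error of 0 at both ages.

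Transcripts that separated the groups of females were near the limit of detection in males. In females the same comparison called 11 genes (0.202%), all lower in germ cell–removed fish, with 350 (6.42%) at an unadjusted p under 0.05, of which 2.24% of the genes tested were higher and 4.19% lower. Among the 11 were egg yolk and egg envelope precursors, which fish livers make under estrogen. OL-VIT1, a vitellogenin precursor, gave 7 counts in germ cell–removed and 4521 in control females, and 7 in germ cell–removed and 5 in control males. OLA.19919, a choriogenin precursor, gave 3 counts in germ cell–removed and 1037 in control females, and 1 in germ cell–removed and 3 in control males. F13A1 (2 OF 2), the coagulation factor XIII A chain, gave 3 counts in germ cell–removed and 462 in control females, and 1 in germ cell–removed and 6 in control males.

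The difference between the sexes itself was tested over 5295 genes. By edgeR 0 were called (0%) and 284 (5.36%) had an unadjusted p under 0.05, 3.93% with a higher and 1.44% with a lower change in males, and DESeq2 called 6, which were OL-VIT1, OLA.16036, OLA.19919, OLA.8666, Nfu_g_1_012216 and F13A1 (2 OF 2). The 2 lowest values in edgeR belonged to OLA.8666, an egg envelope precursor (unadjusted p = 0.000137, adjusted p = 0.431), and TCF4 (2 OF 2), a transcription factor. TCF4 (2 OF 2) gave 19 counts in germ cell–removed and 47 in control males (log2 fold change −1.29), and 71 in germ cell–removed and 41 in control females (0.83), a difference of −2.08 ± 0.55 between the sexes (unadjusted p = 0.000163, adjusted p = 0.431).

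For several genes described above the estimated change differed between the sexes in sign or in size. HSP90AA1.2 differed by −0.47 in males and 0.54 in females (unadjusted p = 0.00589 for the difference). HSPA1A (Nfu_g_1_014930) differed by −1.20 in males and 1.50 in females (unadjusted p = 0.000596), and FBXO32 by 0.23 in males and −1.99 in females (unadjusted p = 0.0202). CDO1 differed by 2.25 in males and −0.34 in females (unadjusted p = 0.021). For Nfu_g_1_007730 the change was 0.75 in males and 0.26 in females (unadjusted p = 0.0555). None of these differences was called. In males the libraries not subsampled were young controls, and in females they were young germ cell–removed fish. Without those libraries the male log2 fold change was −0.26 for HSP90AA1.2 and −0.79 for HSPA1A (Nfu_g_1_014930). The part of subsampling in the differences between the sexes was not tested for these genes.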

How the data were processed

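Per the labels and the study's methods, the authors pooled barcoded cDNA of single animals, demultiplexed the reads, subsampled most libraries, trimmed them with Trim Galore 0.6.7, mapped them with HISAT2 2.2.1 to the GRZ killifish assembly, assigned them to genes with featureCounts 2.0.1 and collapsed UMIs with UMI-tools; the deposited counts are whole UMI counts per gene, not normalized. The table holds 20406 lines, of which the 18529 with a gene identifier were used. Its 40 liver columns were not used. Treatment, age, sex and animal number come from the column names.

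Counts were fitted with edgeR 4.0.16 in R 4.3.3 (TMM, default quasi-likelihood fit, Benjamini-Hochberg adjustment over all genes tested, threshold 0.05). A gene needed 20 counts in total over 20 libraries, 10 over 10 and 40 over 40. CPM uses TMM-scaled library sizes, except that the worth of 1 count above uses plain totals. Values after ± are standard errors of the fit, and intervals are 95%. DESeq2 1.42.0 was an alternative. Other alternatives were RLE size factors, plain library sizes, the newer quasi-likelihood fit, filterByExpr, lower count minimums, no abundant genes, thinning, leaving out the libraries not subsampled or each library in turn, no age covariate, all muscle groups together, and the replicate block. The test was tried on simulated data. Tables were made with Python 3.11.15.

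No library was counted as a duplicate: over the 40 pairs that share a group, chi-square per degree of freedom was 1.64 to 10.4. Deviations of animals with the same number in both treatments from their group means were checked for correlation: r was −0.0187 to 0.136 at 1.5 months, and 0.188 to 0.517 for all 5 pairs at 3 months. The control of the same number was the closest match in 4 of 10 pairs, all at 3 months. For number 5 of that age (r = 0.188) another control was closer. The block by number is thus given at 3 months as an alternative, not as an established pairing. The labels do not say what a number marks.

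The comparison, its genes and the 31 lists were chosen with earlier results of these data known. Genes named are those called in a comparison (up to 15 in each direction with the ages pooled, up to 5 within an age or an interaction), those the study measured in muscle, up to 4 members of each list by level and by p, genes over 1% of a library, and dnd and VASA. Nfu_g_1_007454, Nfu_g_1_002182, Nfu_g_1_023611, CD68, CABZ01045230.1 and other genes named for a low p, a blocked call or a call by DESeq2 were chosen after their values were seen. List members were matched by symbol, with a fish paralog letter A or B allowed. Values of some genes are not reported here, though they count among the members of the lists.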

Additional observations from a re-analysis of the deposited data

Results flagged for a closer look

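Within groups of 5 animals, the highest or lowest value was set apart from the nearest of the others by more than 0.71 of the group's range in 23 of 126 groups examined, over 32 quantities. For normally distributed values chance would flag about 5 in 100 groups. Many of these quantities are sparse counts, and some were chosen after their values were seen. That rate is therefore no measure of chance here, and the number of flags is not read as an excess. Of the 23, 9 were in germ cell–removed animal 3 of 3 months. They were C21H11ORF70 (371.9 CPM), Nfu_g_1_024366 (265.7 CPM), CD68 (283.4 CPM), B2M (1 OF 2) (100.4 CPM), CABZ01045230.1 (200.7 CPM), CDO1 (230.2 CPM), Nfu_g_1_007454 (3324 CPM), Nfu_g_1_017699 (236.1 CPM) and the summed leukocyte markers (283.4 CPM). Its total of 176344 counts lay within the range of its group.

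Another 4 were in germ cell–removed animal 1 of 1.5 months, for C21H11ORF70 (303.5 CPM), Nfu_g_1_011108 (121.4 CPM), Nfu_g_1_024366 (93.82 CPM) and CDO1 (82.78 CPM). One was UCP3 in germ cell–removed animal 4 of 3 months, the highest at 862.5 CPM.

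Among control males of 1.5 months, animal 1 was highest for Nfu_g_1_007454 (1160 CPM) and the exocrine pancreas markers (738.2 CPM), animal 2 for ALAS2 (10.33 CPM), animal 4 for Nfu_g_1_024366 (11.5 CPM) and animal 5 for B2M (1 OF 2) (5.84 CPM), and animal 5 was lowest for GB-ALPHA2 (11.68 CPM). Among control males of 3 months, animal 2 was highest for COL10A1 (497.3 CPM), and animal 3 was highest for C21H11ORF70 (463.1 CPM) and lowest for the red blood cell markers (11.03 CPM). Values of 5 to 12 CPM rest on 1 to 2 counts.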

How the results depend on the processing

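With the ages pooled, where 0 genes were called, 17 were called with every gene of at least 1 count, 3 with a minimum of 10 counts in total, and 16 with the replicate block (14 higher, 2 lower); leaving out each animal in turn gave 0 to 5. At 1.5 months, where 6 were called, 0 were called by the newer quasi-likelihood fit, filterByExpr, DESeq2, all 8 muscle groups in 1 fit, or without the libraries not subsampled, 3 after thinning to the smallest total and 10 with the replicate block, and 3 to 11 when each animal was left out in turn. The numbers did not pair the animals at that age or over both ages, so the block there is no weaker or stronger effect. At 3 months, 11 genes were called with every gene of at least 1 count and 8 with the replicate block. The age interaction gave 3 with every gene of at least 1 count; leaving out each animal gave 0 to 0 both there and at 3 months. The sex interaction gave 14 with every gene of at least 1 count and 6 by DESeq2, and the females' 11 calls became 94 and 38 with a minimum of 1 and of 10 counts. The cause was not tested. The other alternatives kept each count within 1.5 times. Under plain library sizes the median log2 fold change of all genes was −0.08 with the ages pooled, −0.13 at 3 months and −0.11 for the sex interaction, against 0.02, 0.00 and 0.08 with TMM. For 67 single genes with the ages pooled, 2155 alternatives were compared with the main fit. Of these, 2069 stayed without a call, and within 1 standard error where the gene had one, 43 moved further without a call, and 43 became called. In 0 did the sign change for a gene with an unadjusted p under 0.05 or a call. Nfu_g_1_002182, with 0 counts in control males, had no standard error to compare with. Its value ran from 2.70 to 4.92, against 4.58 in the main fit. No call could be lost, as the main fit made none. The default fit of the installed edgeR is the legacy fit, so the planned legacy alternative was not a separate fit and the newer fit was added after the data were seen, as were the values of the gene lists without germ cell–removed animal 3 of 3 months. At 3 months each library was subsampled, and a minimum of 10 counts is already in force in the fits of 10 libraries. With 5 animals a group and a count worth 4.62 to 9.75 CPM, genes with few counts are the least certain.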
